A study of Mus musculus with 17 samples.

Results

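The T cell receptor complex and its proximal signalling proteins were represented here by 10 genes, taken by their symbols from the count table of each library: Trat1, Lime1, Lck, Zap70, Cd3g, Cd247, Cd4, Cd28, Icos and Cd7. All 10 were found among the 988 genes of the panel, and each was described in all 17 libraries. The question asked of them was whether the adaptor genes follow the genes of the receptor chains. The libraries came from colon of mice injected with azoxymethane (AOM), a chemical carcinogen used to raise colon tumors, and none came from untreated mice. Kit-B6 mice had the C57BL/6 background with normal Kit. Kit-W/sh mice carried the W-sash allele of Kit, a rearrangement upstream of the gene that leaves adult mice short of mast cells. For each genotype, 6 libraries were colon tumors at postnatal week 32, after AOM injections spread over 6 weeks and a further 18 weeks. Preneoplastic colon at postnatal week 14, after 3 weeks of injections and 3 more weeks, gave 3 Kit-B6 libraries and 2 Kit-W/sh libraries. Tumor mice had 6 injections and preneoplastic mice had 3, so stage, age, carcinogen dose and kind of tissue cannot be told apart in any comparison of stage.

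A T cell senses antigen through a receptor that has no enzyme of its own. The receptor signals through the CD3 chains, of which Cd3g encodes one, and through the zeta chain encoded by Cd247. The kinase Lck, carried to the receptor by the co-receptor CD4, phosphorylates these chains, and the kinase Zap70 then docks on them and spreads the signal. Trat1 encodes a transmembrane adaptor that associates with the receptor, and Lime1 encodes a transmembrane adaptor that binds Lck. Cd28 and Icos encode costimulatory receptors, and Cd7 encodes a surface protein of T cells and natural killer cells. Natural killer cells also make Lck, Zap70 and Cd247. Some innate lymphoid cells of the gut share several of these genes.

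The adaptor genes Trat1 and Lime1 are shown beside the receptor chain genes Cd3g and Cd247 because the question of adaptors and chains turns on those 4 genes. The sequences are the 250 bases before the start site, 5′ to 3′ on the strand of the gene, from RefSeq on GRCm38.p6. Of the 10 genes, 6 were matched in the promoter table, and Lck and Zap70 had more than 1 start and are not shown. Capitals mark matches to motifs searched on both strands, namely the ETS motif GGAAGT, the RUNX motif TGTGGT, the GATA motif AGATAA and the E protein motif CAGCTG.
Trat1, chr16:48772063-48772312, minus strand: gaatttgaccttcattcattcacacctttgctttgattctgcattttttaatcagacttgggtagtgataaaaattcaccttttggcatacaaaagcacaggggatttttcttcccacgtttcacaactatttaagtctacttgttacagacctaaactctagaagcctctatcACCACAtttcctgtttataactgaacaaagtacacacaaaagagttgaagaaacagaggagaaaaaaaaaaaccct
Lime1, chr2:181380985-181381234, plus strand: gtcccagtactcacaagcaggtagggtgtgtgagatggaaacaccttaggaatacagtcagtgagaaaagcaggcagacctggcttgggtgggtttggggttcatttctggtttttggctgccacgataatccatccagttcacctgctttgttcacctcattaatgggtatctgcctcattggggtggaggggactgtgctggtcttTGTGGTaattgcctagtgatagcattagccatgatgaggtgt
Cd3g, chr9:44980432-44980681, minus strand: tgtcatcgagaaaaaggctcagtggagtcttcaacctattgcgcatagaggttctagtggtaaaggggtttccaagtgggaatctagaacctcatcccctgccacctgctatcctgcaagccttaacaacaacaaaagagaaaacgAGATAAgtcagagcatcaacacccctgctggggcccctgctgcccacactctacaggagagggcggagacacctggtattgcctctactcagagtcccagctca
Cd247, chr1:165788431-165788680, plus strand: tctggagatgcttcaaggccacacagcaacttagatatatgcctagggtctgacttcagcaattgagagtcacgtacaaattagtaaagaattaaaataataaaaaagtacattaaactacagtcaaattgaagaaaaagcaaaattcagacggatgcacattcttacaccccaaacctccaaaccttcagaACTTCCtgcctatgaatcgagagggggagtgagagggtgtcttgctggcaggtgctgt

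Each of the 4 windows held 1 match, and no match overlapped another. The windows of Trat1 and Lime1 both matched the RUNX motif, in opposite orientations, beginning 76 and 42 bases before the start. The Cd3g window matched the GATA motif 104 bases before the start, and the Cd247 window matched the ETS motif 58 bases before it. Among 32851 RefSeq windows of the same length, 14% held the RUNX motif, 9.99% the GATA motif, 19.7% the ETS motif and 13% the E protein motif. A match is a description of the letters only.

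Values are given as CPM (counts scaled to a common library size) after edgeR scaling, from library totals between 616009 and 1399902 counts. A floor of 3 counts lay between 2.14 and 4.87 CPM of the unscaled library totals, and it covers counting error only. On the scaled values, 3 counts came to 5.50 CPM in Kit-B6 preneoplastic 1 and to 4.19 CPM in Kit-B6 tumor 2. Levels are compared for 1 gene between libraries and not between genes, because amplicons differ in yield. In these bulk samples, fewer cells of a type and less RNA per cell cannot be told apart. The labels do not say that every sample came from a separate mouse, and p-values then measure only how these samples spread, which may be technical. The deposited names of Kit-B6 tumors 4 and 5 differ only in their last part, so these tumors may share a mouse, and n = 6 may then count 1 mouse more than once. Without either of them, the same 6 of the 10 genes were called over stage in Kit-B6. Panel calls were then 425 of 865 genes without tumor 4 and 323 of 866 without tumor 5. Of 11 T cell marker genes, 9 were measured, and no group had a measured one at 0 in all its libraries. Kit lay between 93.7 and 473 CPM in Kit-B6 tumors and between 48.9 and 258 CPM in Kit-W/sh tumors. The W-sash allele leaves the Kit coding sequence in place, so this amplicon does not test the genotype. The highest Kit-W/sh value belonged to tumor 2. That library also held 460 CPM of Cpa3, a mast cell protease gene, against 0 to 9.81 CPM in the other 5 Kit-W/sh tumors. It goes against its label and is called the library labelled Kit-W/sh tumor 2. Another library that stood apart was Kit-B6 preneoplastic 2, with 3476 CPM summed over 10 B cell markers against 229 and 1191 CPM in the other preneoplastic Kit-B6 libraries. Kit-B6 tumor 2 held 1033 CPM of these markers, against 57.6 to 144 CPM in the other Kit-B6 tumors. In Kit-B6 tumor 4 the measured epithelial genes summed to 82428 CPM, against 39856 to 48661 CPM in the other Kit-B6 tumors.

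In Kit-B6 mice, 6 of the 10 genes differed between tumors and preneoplastic colon by edgeR's quasi-likelihood test at a Benjamini-Hochberg adjusted p of 0.05 over all genes tested. Zap70 rose, and Trat1, Lime1, Cd7, Cd4 and Lck fell. Of the 869 genes tested in this comparison, 41.1% were called, 22.2% as higher and 18.9% as lower. In Kit-W/sh mice 4 of the 10 were called, a share like that of the panel, where 39.7% were called (20.9% higher and 18.8% lower). Zap70 rose there too, and Trat1, Lime1 and Cd7 fell. The median log2 fold change of the 10 genes was -1.15 in Kit-B6, beside -0.00 for all genes tested, and -0.15 in Kit-W/sh, beside 0.08.

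**Figure D1:**
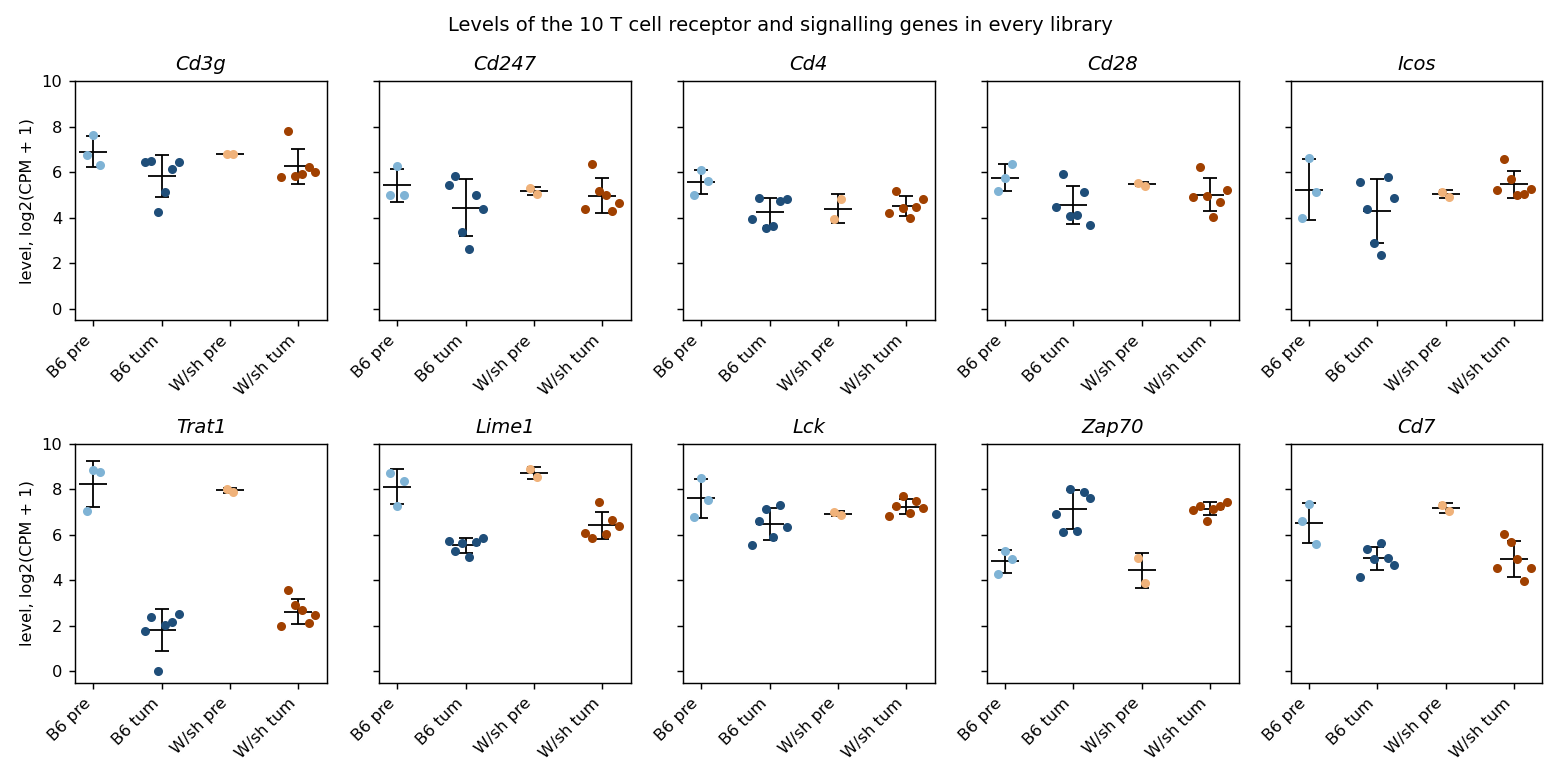
Level of each gene in every library as log2(CPM + 1), with 1 point per library and lines for the mean ± SD of Kit-B6 (blue) and Kit-W/sh (orange) preneoplastic colon (pre) and tumors (tum). Trat1 lay at or below 10.8 CPM in all 12 tumors and at or above 132 CPM in all 5 preneoplastic libraries, whereas Zap70 was higher in every tumor than in any preneoplastic library.

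Trat1, the receptor-associated adaptor, had the smallest p of all genes tested in both genotypes. Preneoplastic Kit-B6 colon held 132, 457 and 432 CPM, and preneoplastic Kit-W/sh colon held 260 and 233 CPM. Kit-B6 tumors 1 to 6 held 2.42, 4.19, 0, 3.09, 3.56 and 4.72 CPM, and Kit-W/sh tumors 1 to 6 held 3.02, 10.8, 6.52, 5.40, 3.43 and 4.58 CPM. No tumor came near a preneoplastic library in either genotype. The Kit-B6 tumor values rest on 18 counts summed over 6 libraries, with 0 to 5 counts in each, so their order among themselves is within counting error. The highest tumor value was that of the library labelled Kit-W/sh tumor 2, from 14 counts. Trat1 fell by 6.79 ± 0.53 (SE) on the log2 scale in Kit-B6 (edgeR adjusted p = 4.76e-07) and by 5.42 ± 0.51 in Kit-W/sh (edgeR adjusted p = 8.46e-06). Without the library labelled Kit-W/sh tumor 2 the log2 fold change in Kit-W/sh was -5.71.

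Lime1, the Lck-binding adaptor, also fell in both genotypes, by less than Trat1. It measured 425, 154 and 324 CPM in preneoplastic Kit-B6 colon and 472 and 369 CPM in preneoplastic Kit-W/sh colon. Kit-B6 tumors held 52.5, 37.7, 48.3, 31.9, 49.9 and 57.8 CPM, and Kit-W/sh tumors held 67.2, 57.8, 175, 64.0, 99.3 and 81.6 CPM. Kit-W/sh tumor 3 was the highest tumor, and only this tumor exceeded the lowest preneoplastic library, which was of the other genotype. Within each genotype the groups did not overlap. Its log2 fold change was -2.69 ± 0.35 in Kit-B6 (edgeR adjusted p = 3.69e-05) and -2.21 ± 0.38 in Kit-W/sh (edgeR adjusted p = 0.000534).

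Zap70, the kinase that binds the phosphorylated chains, moved the opposite way. Preneoplastic Kit-B6 colon held 18.3, 38.1 and 29.5 CPM, and preneoplastic Kit-W/sh colon 30.7 and 13.8 CPM. The Kit-B6 tumors were at 119, 68.4, 261, 70.0, 234 and 198 CPM, and the Kit-W/sh tumors at 137, 155, 96.9, 140, 152 and 172 CPM. Every tumor was higher than every preneoplastic library. Zap70 had a log2 fold change of 2.46 ± 0.49 in Kit-B6 (edgeR adjusted p = 0.00104) and of 2.69 ± 0.59 in Kit-W/sh (edgeR adjusted p = 0.00272). Without Kit-W/sh preneoplastic 2 the Kit-W/sh value was 2.21 and was not called (edgeR adjusted p = 0.058). That fit leaves 1 preneoplastic Kit-W/sh library, which is assumed to vary like the other groups, and calls over the whole panel dropped from 345 of 869 genes to 159 of 893.

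Lck, the kinase that starts the cascade, was called in Kit-B6, where it fell. It measured 108, 361 and 186 CPM in preneoplastic Kit-B6 colon and 45.2, 96.4, 141, 59.7, 158 and 79.0 CPM in Kit-B6 tumors, and these groups overlapped. Preneoplastic Kit-W/sh colon held 127 and 114 CPM, and Kit-W/sh tumors held 111, 153, 210, 123, 176 and 145 CPM, again overlapping. Lck fell in Kit-B6 by 1.18 ± 0.39 on the log2 scale (edgeR adjusted p = 0.0232), and the log2 fold change in Kit-W/sh was 0.35 ± 0.47 (edgeR adjusted p = 0.566). The difference between these 2 changes, tested as the interaction of genotype and stage, was 1.52 ± 0.62 on the log2 scale (edgeR adjusted p = 0.66) and did not pass.

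The receptor chain genes were not called over stage in either genotype. Cd3g measured 108, 196 and 79.1 CPM in preneoplastic Kit-B6 colon and 87.2, 88.0, 17.9, 34.0, 69.8 and 84.9 CPM in Kit-B6 tumors. It measured 110.3 and 110.1 CPM in preneoplastic Kit-W/sh colon and 53.6, 221, 56.2, 58.6, 73.6 and 63.2 CPM in Kit-W/sh tumors. Kit-B6 tumors 3 and 4 were the lowest, and the library labelled Kit-W/sh tumor 2 was the highest of all 17. The log2 fold change of Cd3g was -1.0 ± 0.52 in Kit-B6 (edgeR adjusted p = 0.127) and -0.33 ± 0.61 in Kit-W/sh (edgeR adjusted p = 0.679). Without the library labelled Kit-W/sh tumor 2 the Kit-W/sh value was -0.85 (edgeR adjusted p = 0.167).

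Cd247, the zeta chain gene, showed the same libraries at its extremes. It measured 31.2, 76.2 and 31.0 CPM in preneoplastic Kit-B6 colon and 42.8, 55.9, 9.46, 5.15, 30.6 and 20.0 CPM in Kit-B6 tumors. Preneoplastic Kit-W/sh colon held 38.0 and 31.7 CPM and Kit-W/sh tumors held 19.6, 80.2, 35.03, 30.9, 18.8 and 23.8 CPM. The groups overlapped in both genotypes. In Kit-B6 the log2 fold change was -0.75 ± 0.63 (edgeR adjusted p = 0.339). In Kit-W/sh the means were 34.8 ± 4.48 CPM (SD, n = 2) before and 34.7 ± 23.2 CPM (SD, n = 6) in tumors, and the sign of the fitted difference varied with the scaling.

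Cd4, the co-receptor gene, fell in Kit-B6. Its levels were 31.2, 67.1 and 48.1 CPM in preneoplastic Kit-B6 colon and 14.5, 27.9, 10.5, 11.3, 25.7 and 27.1 CPM in Kit-B6 tumors, without overlap. In Kit-W/sh they were 14.5 and 27.5 CPM in preneoplastic colon and 17.4, 34.7, 20.4, 14.7, 21.4 and 27.5 CPM in tumors, with overlap. The log2 fold change of Cd4 was -1.32 ± 0.41 in Kit-B6 (edgeR adjusted p = 0.0185) and 0.10 ± 0.51 in Kit-W/sh (edgeR adjusted p = 0.882). The interaction for Cd4 was 1.42 ± 0.67 on the log2 scale (edgeR adjusted p = 0.66).

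Cd7 fell in both genotypes. It measured 95.4, 163 and 48.1 CPM in preneoplastic Kit-B6 colon and 159 and 129 CPM in preneoplastic Kit-W/sh colon. Kit-B6 tumors held 16.96, 40.5, 29.4, 48.4, 30.6 and 24.8 CPM, and Kit-W/sh tumors held 22.6, 65.6, 50.5, 29.3, 14.6 and 22.0 CPM. The Kit-B6 groups met at 48.1 and 48.4 CPM, and the Kit-W/sh groups were apart. Cd7 had log2 fold changes of -1.68 ± 0.46 in Kit-B6 (edgeR adjusted p = 0.00911) and -2.08 ± 0.50 in Kit-W/sh (edgeR adjusted p = 0.00495). The Kit-B6 call was lost without Kit-B6 preneoplastic 2 (-1.17, edgeR adjusted p = 0.0903). Without Kit-W/sh preneoplastic 1 the Kit-W/sh value was -1.92 and was not called (edgeR adjusted p = 0.0624), in a fit that again rests on 1 preneoplastic Kit-W/sh library and called 132 of 893 panel genes.

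The costimulatory receptor genes Cd28 and Icos were not called in either genotype. Cd28 ranged from 34.8 to 82.2 CPM in preneoplastic Kit-B6 colon and from 11.8 to 58.7 CPM in Kit-B6 tumors, with a median of 18.7 CPM. In Kit-W/sh it was 45.2 and 41.3 CPM in preneoplastic colon and ranged from 15.4 to 73.3 CPM in tumors, with a median of 29.8 CPM. The log2 fold change of Cd28 was -1.12 ± 0.52 in Kit-B6 (edgeR adjusted p = 0.0892) and -0.30 ± 0.60 in Kit-W/sh (edgeR adjusted p = 0.701). Without Kit-B6 tumor 2, the highest Kit-B6 tumor for Cd28, the Kit-B6 value was -1.50 and was called (edgeR adjusted p = 0.0177). Icos ranged from 14.7 to 96.2 CPM in preneoplastic Kit-B6 colon and from 4.12 to 54.2 CPM in Kit-B6 tumors. In Kit-W/sh it was 34.4 and 28.9 CPM in preneoplastic colon and ranged from 30.9 to 94.9 CPM in tumors. The log2 fold change of Icos was -0.85 ± 0.68 in Kit-B6 (edgeR adjusted p = 0.321) and 0.57 ± 0.84 in Kit-W/sh (edgeR adjusted p = 0.596).

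Within Kit-B6, the tumors and the preneoplastic libraries did not overlap for Zap70, Trat1, Lime1 and Cd4, against 29.3% of genes tested. Within Kit-W/sh they did not overlap for Zap70, Trat1, Lime1 and Cd7, against 58.2% of genes tested. Kit-B6 preneoplastic 2, the library with the highest summed B cell markers, was also the highest Kit-B6 library for Trat1, Lck, Cd3g, Cd247, Cd4, Icos and Cd7. Without it, 3 of the 10 genes were called in Kit-B6, namely Trat1 (-6.51), Lime1 (-3.00) and Zap70 (2.72), and calls over the whole panel dropped as well, from 357 of 869 genes to 271 of 868. The calls of Lck (-0.60, edgeR adjusted p = 0.266), Cd4 (-1.01, edgeR adjusted p = 0.115) and Cd7 were then lost, and the difference of Icos became 0.14. The part of B cell content in these differences was not tested. Without the library labelled Kit-W/sh tumor 2, the same 4 genes were called in Kit-W/sh, with Lime1 at -2.11, Zap70 at 2.66 and Cd7 at -2.37. Panel calls were then 367 of 865 genes.

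**Figure D2:**
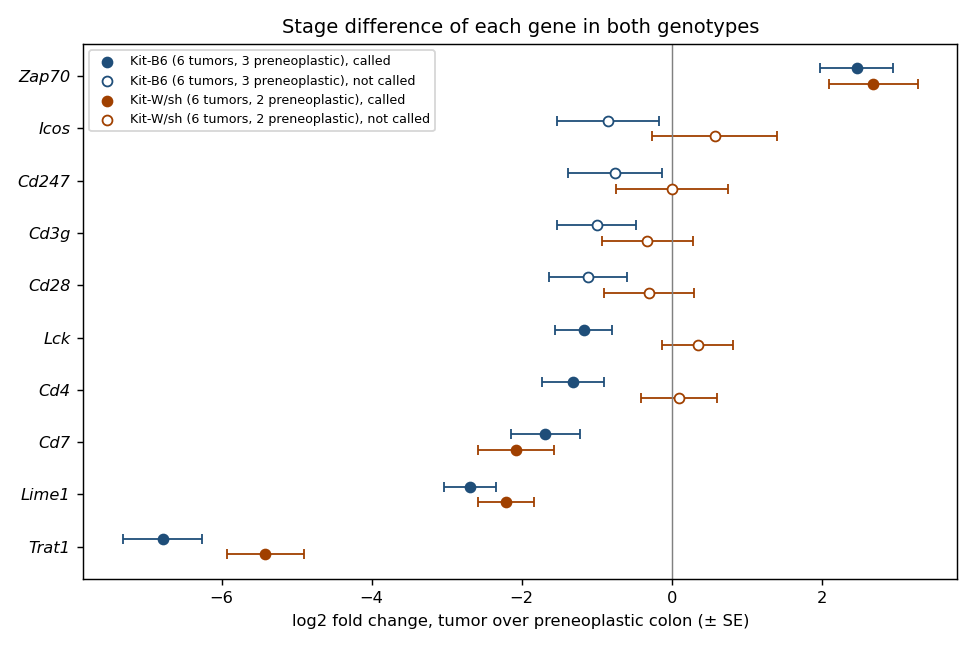
Log2 fold change of each gene, tumor over preneoplastic colon, with its SE, in Kit-B6 (blue, 6 tumors and 3 preneoplastic libraries) and Kit-W/sh (orange, 6 tumors and 2 preneoplastic libraries). Filled points passed an edgeR adjusted p of 0.05 and open points did not; Trat1 lies at -6.79 and -5.42, Zap70 at 2.46 and 2.69, and the chain genes Cd3g and Cd247 lie between.

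To ask whether the other genes followed the receptor chains, the level of each gene was divided by that of Cd3g and of Cd247 in the same library. Such a ratio compares a library with itself, and only its change is read, since the size of a ratio depends on the amplicons. Differences are of log2((CPM + 1) ratio), tumor minus preneoplastic, averaged over both genotypes. They were tested by a two-sided exact permutation of stage within genotype, with p-values adjusted over 34 ratios. Of the 17 ratios over stage, 5 passed: both Trat1 ratios, both Zap70 ratios and Lime1 over Cd247. The ratios of a gene to Cd3g and to Cd247 share that gene's level, so they are not independent of each other. Ratios to the chains were not computed for other panel genes, so this count has no panel share beside it. By edgeR, 41.1% of panel genes tested were called over stage in Kit-B6 and 39.7% in Kit-W/sh. Whether a departure from the chains is particular to these genes was not tested.

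Trat1 did not follow the receptor chains. For every 100 counts of Cd3g, preneoplastic libraries held 122 to 547 counts of Trat1, and tumors held 0 to 11.6. Trat1 over Cd3g fell by 5.04 on the log2 scale, with -5.31 in Kit-B6 and -4.78 in Kit-W/sh (exact permutation p = 0.000425, the smallest the 2352 arrangements can give, adjusted p = 0.00361). Trat1 over Cd247 fell by 5.28, with -5.42 and -5.13 (exact permutation, adjusted p = 0.00361). All 12 tumors lay below all 5 preneoplastic libraries.

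Lime1 shifted the same way by a smaller and less firm amount. For every 100 Cd3g counts there were 78.7 to 428 counts of Lime1 in preneoplastic libraries and 26.1 to 312 in tumors, which overlap. The lowest preneoplastic ratio was that of Kit-B6 preneoplastic 2, and the highest tumor ratio was that of Kit-W/sh tumor 3. The difference of Lime1 over Cd3g was -1.62 (exact permutation p = 0.0102, adjusted p = 0.0578) and did not pass. Lime1 over Cd247 fell by 1.85 (exact permutation p = 0.00638, adjusted p = 0.0434). That call was lost in 11 of 17 cases when 1 library was left out, and in those cases the difference was between -1.89 and -1.60. Lime1 over Cd3g passed when any 1 of 4 libraries was left out. It was -2.01 without Kit-B6 preneoplastic 2 (exact permutation, adjusted p = 0.00867), -1.79 without Kit-B6 tumor 3 (exact permutation, adjusted p = 0.013), -1.77 without Kit-W/sh tumor 3 (exact permutation, adjusted p = 0.0116) and -1.41 without the library labelled Kit-W/sh tumor 2 (exact permutation, adjusted p = 0.0231).

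Zap70 departed from the chains in the other direction. For every 100 Cd3g counts there were 12.5 to 37.3 counts of Zap70 in preneoplastic libraries and 70.0 to 1459 in tumors, without overlap. The top of that range was Kit-B6 tumor 3, the tumor with the lowest Cd3g. Zap70 over Cd3g rose by 3.31, with 3.38 in Kit-B6 and 3.25 in Kit-W/sh, and Zap70 over Cd247 rose by 3.08 (exact permutation, adjusted p = 0.00361 for both).

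**Figure D3:**
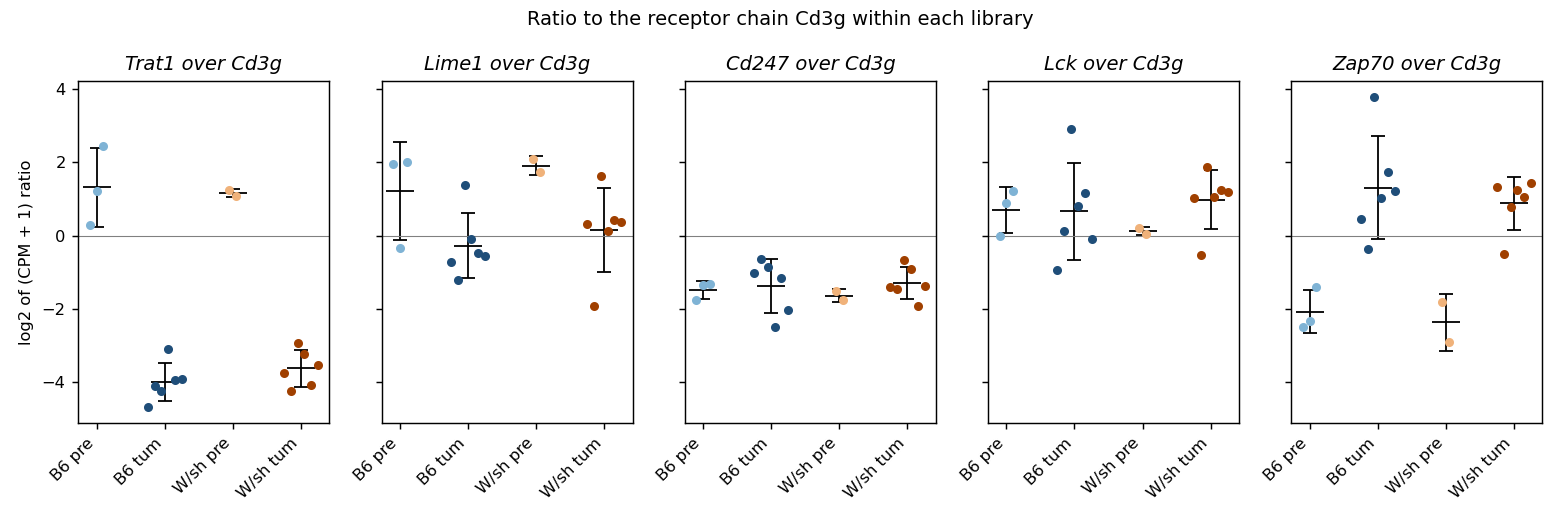
Ratio of 5 genes to Cd3g within each library, as log2 of the (CPM + 1) ratio, with 1 point per library and lines for the mean ± SD of Kit-B6 (blue) and Kit-W/sh (orange) preneoplastic colon (pre) and tumors (tum). The stage difference was -5.04 for Trat1, -1.62 for Lime1, 0.23 for Cd247, 0.41 for Lck and 3.31 for Zap70.

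The remaining ratios did not pass. Cd247 over Cd3g differed by 0.23 (exact permutation, adjusted p = 0.773), and Lck over Cd3g by 0.41 (exact permutation, adjusted p = 0.773). For Cd4, Cd28 and Icos, the 6 ratios differed by -0.25 to 0.57 (exact permutation, adjusted p from 0.417 to 0.981). Cd7 over Cd3g differed by -1.07 and over Cd247 by -1.31 (exact permutation, adjusted p = 0.173 and 0.101). Without Kit-B6 tumor 4, Cd7 over Cd247 was -1.56 and passed (exact permutation, adjusted p = 0.0174). A ratio that misses the threshold is not shown to be constant. Between genotypes, none of the 17 ratios in tumors passed, with differences of Kit-W/sh minus Kit-B6 from -0.53 to 0.72 (exact permutation, adjusted p from 0.339 to 0.981).

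From tumor to tumor, some genes rose and fell with Cd3g, and for others no relation passed. Over the 12 tumors, log2(CPM + 1) of Cd247 correlated with that of Cd3g (Pearson r = 0.82, permutation adjusted p = 0.00741; Spearman rho = 0.73, adjusted p = 0.0441). Cd4 did so as well (r = 0.80, permutation adjusted p = 0.00477; rho = 0.73, adjusted p = 0.0441). Values were adjusted over 9 relations. Without the 2 tumors farthest from the median of Cd3g, which were Kit-B6 tumor 3 and the library labelled Kit-W/sh tumor 2, r was 0.77 for Cd247 and 0.64 for Cd4. Without the library labelled Kit-W/sh tumor 2 alone, r was 0.75 for both (permutation adjusted p = 0.0499 for Cd247 and 0.0355 for Cd4), and no other relation passed.

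For Icos r was 0.79 (permutation adjusted p = 0.00741) and rho 0.41 (adjusted p = 0.361), with r = 0.60 without those 2 tumors. For Trat1 r was 0.81 (permutation adjusted p = 0.018) and rho 0.40 (adjusted p = 0.361), and r was -0.00 without them, so this relation rested on those tumors and on 0 to 14 counts. For Cd28 r was 0.61 (permutation adjusted p = 0.0609), and 0.23 without them. Lime1 (r = 0.10), Lck (r = 0.03), Zap70 (r = -0.11) and Cd7 (r = 0.16) did not pass (permutation adjusted p from 0.848 to 0.937). Without those 2 tumors r was 0.06 for Lime1, -0.02 for Lck, 0.34 for Zap70 and -0.49 for Cd7. Within 6 tumors of either genotype, no relation passed after adjustment by the exact permutation test. Within genotype, r for Cd247 was 0.81 in Kit-B6 and 0.83 in Kit-W/sh, and r for Cd4 was 0.80 and 0.79. These values rested largely on the extreme tumors. Without the 2 tumors of each genotype farthest from its median of Cd3g, r for Cd247 was 0.33 and 0.13. For Cd4 it was then -0.26 and 0.61. The rho of Cd247 was 0.89 in Kit-B6 and 0.20 in Kit-W/sh, and that of Cd4 was 0.83 and 0.77. Zap70 had a rho of -0.66 in Kit-B6 and 0.77 in Kit-W/sh.

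**Figure D4:**
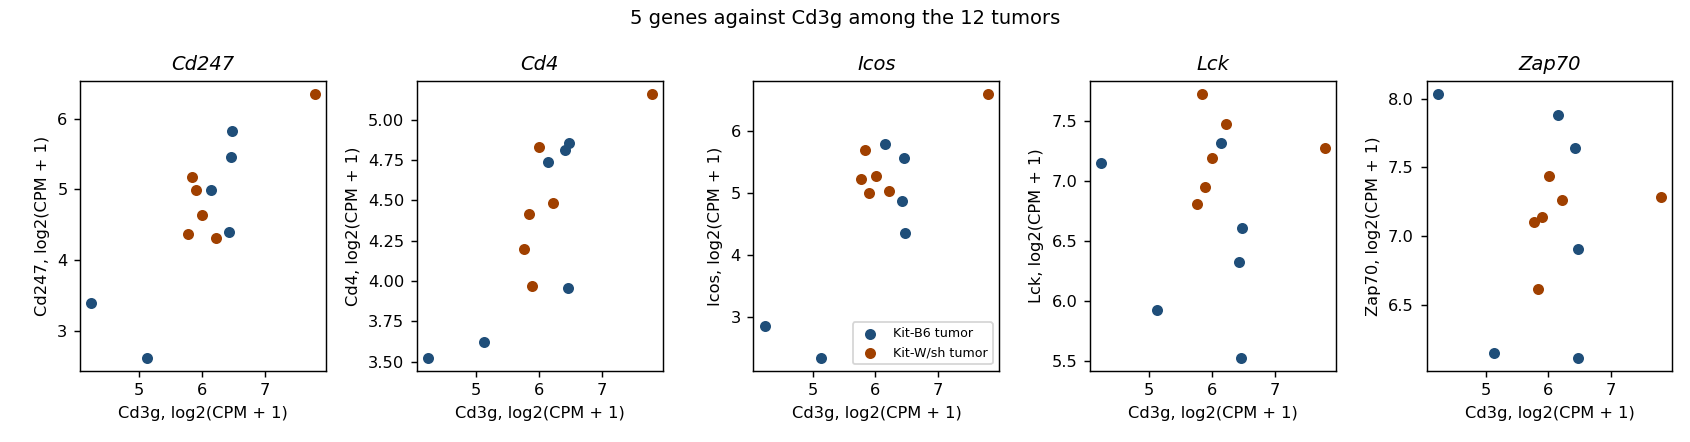
Level of 5 genes against Cd3g in the 12 tumors, both axes as log2(CPM + 1), with 1 point per tumor in Kit-B6 (blue) and Kit-W/sh (orange). Cd247 (r = 0.82) and Cd4 (r = 0.80) rise with Cd3g, by rho as well. Icos passed by r (0.79) and not by rho (0.41). For Lck (r = 0.03) and Zap70 (r = -0.11) no relation passed over the 12 tumors.

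Between the genotypes, no gene of the 10 was called at either stage. In tumors 9 were tested, and Trat1 was left out by the filter on low counts. None of the 9 passed by edgeR, where 0% of 799 genes were called, or by DESeq2, where 2.3% were. At an unadjusted p under 0.05 there was 1, Lime1, beside 13.6% of the panel. Lime1 was 46.4 ± 9.68 CPM (SD, n = 6) in Kit-B6 tumors and 90.9 ± 43.9 CPM (SD, n = 6) in Kit-W/sh tumors, a log2 difference of 0.96 ± 0.30 (edgeR adjusted p = 0.198). Its highest Kit-B6 tumor, at 57.79 CPM, lay just under its lowest Kit-W/sh tumor, at 57.84 CPM, and 0.626% of genes tested had groups that did not overlap. This gap rests on 49 and 75 counts and depends on the scaling. Without scaling the groups overlapped, with Kit-B6 tumor 6 at 62.0 CPM and the library labelled Kit-W/sh tumor 2 at 61.2 CPM. Without the library labelled Kit-W/sh tumor 2 the difference was 1.05 (edgeR adjusted p = 0.0906).

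Lck was 96.6 ± 44.9 CPM (SD, n = 6) in Kit-B6 tumors and 153 ± 36.2 CPM (SD, n = 6) in Kit-W/sh tumors, a log2 difference of 0.65 ± 0.31 (edgeR adjusted p = 0.376). The other 7 tested genes differed by -0.17 to 0.81, with edgeR adjusted p between 0.551 and 0.944. Trat1 summed to 18 counts over the Kit-B6 tumors and 42 over the Kit-W/sh tumors, with overlapping values. Leaving out the library labelled Kit-W/sh tumor 2 turned the sign of Cd3g from 0.46 to -0.08, of Cd247 from 0.34 to -0.11 and of Cd7 from 0.10 to -0.20, none of which was called.

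In preneoplastic colon, 3 Kit-B6 libraries were set against 2 Kit-W/sh libraries. None of the 10 genes was called by edgeR or DESeq2, and none had an unadjusted p under 0.05 by edgeR, where 10.7% of genes tested did. Of the 777 genes tested, 0.129% were called by edgeR and 2.47% of those tested were called by DESeq2. Cd4 was 48.8 ± 18.0 CPM (SD, n = 3) in Kit-B6 and 21.0 ± 9.23 CPM (SD, n = 2) in Kit-W/sh, without overlap, and 29.7% of genes tested did not overlap. Its log2 difference was -1.21 ± 0.54 (edgeR adjusted p = 0.467). The interaction of genotype and stage called none of the 10 by edgeR or DESeq2, as for 0% of 869 genes by edgeR and 0.104% of genes by DESeq2, and 1 gene, Lck, had an unadjusted p under 0.05, beside 7.25% of the panel.

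Other genes of the same pathway were read from 3 lists. Over all genes tested, 22.2% were called higher and 18.9% lower in Kit-B6. In Kit-W/sh these shares were 20.9% and 18.8%. Of 27 further receptor, co-receptor and T cell surface genes, 19 were measured and 18 tested. In Kit-B6, 4 of the 18 fell, a share near the 18.9% of the panel, and none rose, with a median log2 fold change of -0.85. Those that fell were the activation marker Cd69 (-2.29 ± 0.56, edgeR adjusted p = 0.00449), the inhibitory receptors Btla (-3.10 ± 0.95) and Lag3 (-1.65 ± 0.52), and the co-receptor chain Cd8a (-2.02 ± 0.77, edgeR adjusted p = 0.0447). Btla is also made by B cells. In Kit-W/sh only Il2ra, a chain of the interleukin-2 receptor, was called (1.95 ± 0.73, edgeR adjusted p = 0.043), and the median was -0.18. The other CD3 chain genes, like Cd3g, were not called in either genotype, with log2 fold changes in Kit-B6 of -0.91 ± 0.51 for Cd3e (edgeR adjusted p = 0.155) and -0.97 ± 0.58 for Cd3d (edgeR adjusted p = 0.188).

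Of 27 genes for signalling inside the cell, 9 were measured and 8 tested. Prkcq, a protein kinase C isoform that acts below the receptor, was the only one called, and it rose in both genotypes. Its mean was 16.6 ± 5.40 CPM (SD, n = 3) in preneoplastic Kit-B6 colon and 42.4 ± 22.8 CPM (SD, n = 6) in Kit-B6 tumors, a log2 change of 1.34 ± 0.49 (edgeR adjusted p = 0.0373). In Kit-W/sh the log2 change was 1.80 ± 0.61 (edgeR adjusted p = 0.0281). Of 13 T cell transcription factor genes, 9 were measured and 8 tested. In Kit-B6, Bcl11b (1.40 ± 0.32, edgeR adjusted p = 0.00287) and Gata3 (1.64 ± 0.51, edgeR adjusted p = 0.0173) rose. In Kit-W/sh Eomes rose (edgeR adjusted p = 0.0304), from 1 count summed over 2 preneoplastic libraries to 104 counts over 6 tumors, too few at the start for a fold. Between genotypes, edgeR and DESeq2 called none of the surface and signalling genes at either stage. At an unadjusted p under 0.05 there were 0 in tumors by either tool, and 1 in preneoplastic colon by each, Lag3 by edgeR and Btla by DESeq2.

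Some markers of other cells moved with stage as well. Their counts stand beside panel shares of 22.2% called higher and 18.9% lower in Kit-B6, and 20.9% and 18.8% in Kit-W/sh. Of 14 measured cytotoxic and natural killer cell genes, 9 were tested. Klrd1, Nkg7, Gzma and Cd8a fell in Kit-B6, and Gzma (-2.25), Klrd1 (-2.12) and Nkg7 (-2.05) fell in Kit-W/sh, where Eomes, on this list too, rose. Summed over the 14 genes, the level ranged from 329 to 542 CPM in preneoplastic Kit-B6 colon and from 108 to 249 CPM in Kit-B6 tumors. In Kit-W/sh the 2 preneoplastic sums were 434 and 695 CPM, and the tumors ranged from 125 to 417 CPM. The 9 measured T cell markers, Cd3g, Cd247 and Cd4 among them, summed to 406 to 1058 CPM in preneoplastic Kit-B6 colon and 97.7 to 587 CPM in Kit-B6 tumors. In Kit-W/sh the ranges were 405 to 517 CPM and 225 to 782 CPM. B cell markers summed to 212 and 393 CPM in preneoplastic Kit-W/sh colon and to 57.6 to 1033 CPM over all tumors. The top of that range was Kit-B6 tumor 2, and the next highest tumor, the library labelled Kit-W/sh tumor 2, was at 210 CPM. Of 9 B cell genes tested, 4 fell in Kit-B6 and 0 were called in Kit-W/sh. The 3 measured neutrophil genes rose in both genotypes, and their sum was 6.20 to 15.1 CPM in preneoplastic libraries and 61.8 to 758 CPM in tumors. Of 8 macrophage, monocyte and dendritic cell genes, 3 rose and 1 fell in Kit-B6 and 6 rose and 1 fell in Kit-W/sh, with sums of 1201 to 1507 CPM in preneoplastic libraries and 1432 to 3886 CPM in tumors. Of 3 measured epithelial genes, Car4 and Ceacam1 fell in both genotypes and Epcam was not called. Their sum was 88748 to 182041 CPM in preneoplastic libraries and 39856 to 82428 CPM in tumors, without overlap. Of 4 stromal and endothelial genes, 2 rose and 1 fell in each genotype, with sums of 1776 to 3516 CPM in preneoplastic libraries and 2890 to 11631 CPM in tumors. The part of any of these cells in the results for Trat1, Lime1, Cd7 and Zap70 was not tested.

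Panel genes with the pattern most like that of Trat1 were ranked by Spearman rho over the 17 libraries, as a description. Among 813 genes with a mean of at least 10 CPM, these were H2-T24 (0.86), Oas1a (0.82), Oas1b (0.82), Slc18a2 (0.81) and Lax1 (0.80). The H2 and Oas1 families hold near-identical relatives, so their single members are uncertain. Lax1 encodes another transmembrane adaptor of lymphocytes. Among the 10 genes, Cd7 (0.75) and Lime1 (0.74) were nearest to Trat1, and Zap70 ran opposite to it (-0.62). These values span both stages, between which Trat1 did not overlap, so they carry the stage difference of each gene. The order of Trat1 among tumors, at 0 to 14 counts a library, was limited by depth. For Cd3g over the 12 tumors, among 801 genes, the nearest were Cd3e (0.95), Spn (0.85), Vcam1 (0.85), Fli1 (0.84) and Cst7 (0.82), and the next of the 10 genes were Cd4 (0.73) and Cd247 (0.73). Points of a ranking share library depth and scaling.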

How the data were processed

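Per the labels' protocols, RNA from 17 colon samples was amplified by multiplex PCR with a QIAseq targeted panel of mouse immuno-oncology genes and sequenced on a MiSeq instrument. The authors deposited whole-number counts per panel entry, 1 table a sample, and the file headers do not say whether reads or molecular tags were counted. Each table held 993 entries, of which 5 control amplicons had 0 counts and were left out. The submitters' processing notes name the mm9 build and DESeq2, with no version or role; the aligner and counter are not given in the sources used here. Totals ranged from 616009 to 1399902 counts, and all pairs of libraries within a group differed by more than counting noise.

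Groups and replicate numbers came from the titles. Counts were tested in R 4.3.3 with edgeR 4.0.16 (TMM scaling, filterByExpr keeping genes at 10 counts and at a total of 15, robust quasi-likelihood fits, Benjamini-Hochberg threshold 0.05 over all genes tested). Stage and interaction used 1 fit of all 17 libraries, and genotype was fitted within a stage. Ratios and correlations used log2(CPM + 1), with a pseudocount of 1 CPM, in Python 3.11.15 with scipy 1.17.1, and correlations used 100000 resamples. Alternatives were DESeq2 1.42.0, other scalings and filters, leaving out each library, a replicate block and pseudocounts of 0.25 and 4 CPM. Scaling by the 9 last-listed panel genes was added after seeing the data. Scripts were tested on simulated data. The 10 genes and the lists were chosen with earlier results of these data known. Named genes were the 10, up to 4 per list with the smallest p, and the 5 most like Trat1 and Cd3g.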

Additional observations from a re-analysis of the deposited data

Results flagged for a closer look

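In 20 sets of 6 libraries (each of the 10 genes in each tumor group), the highest or the lowest library was compared with its nearest neighbour by Dixon's 95% criterion, and 5 sets met it. Chance alone meets it in about 1 in 20 groups. Lime1 stood out in Kit-W/sh tumor 3, at 175 CPM against 57.8 to 99.3 CPM in the other 5 Kit-W/sh tumors. The library labelled Kit-W/sh tumor 2 stood out for Cd3g (221 CPM), Cd247 (80.2 CPM), Cd28 (73.3 CPM) and Icos (94.9 CPM). It was the highest of the 12 tumors for 7 of the 10 genes and held the mast cell transcript Cpa3 at 460 CPM, so these 4 are not independent of one another. The part of its mast cell content in those levels was not tested. Without this library the counts of genes called over stage were 6 in Kit-B6 and 4 in Kit-W/sh, the same as with it. Panel calls were then 371 of 865 genes in Kit-B6 and 367 of 865 in Kit-W/sh.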

How the results depend on the processing

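Trat1, Lime1 and Zap70 in Kit-B6, and Trat1 and Lime1 in Kit-W/sh, kept their direction and stayed past the threshold in all alternatives run. In Kit-B6 the number of genes called was 6 and ranged from 3 to 7 when libraries were left out in turn. Panel calls were 271 of 868 genes where 3 were called and 405 of 869 where 7 were. With library totals and no scaling 4 were called, beside 374 of 869 panel genes. With the 2 groups alone 4 were called, beside 264 of 823 panel genes. Lck and Cd4 were lost in both. Unscaled totals moved the median log2 fold change of all genes to 0.24 in Kit-B6 and 0.34 in Kit-W/sh and the split of calls from 193 higher and 164 lower to 273 and 101 in Kit-B6, and from 182 and 163 to 253 and 108 in Kit-W/sh. Scaling by the 9 last-listed genes, chosen after seeing the data, moved the medians to 0.27 (Kit-W/sh stage), -0.15 (genotype, preneoplastic) and 0.22 (interaction), with 218 higher and 106 lower calls in Kit-W/sh. The causes of these shifts were not tested.

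Same-numbered libraries correlated at -0.01 to 0.40 over stage in Kit-B6, with 2 of 3 nearest to their own number. Over stage in Kit-W/sh they correlated at -0.11 to 0.06, with 0 of 2. Between genotypes the range was -0.20 to 0.39 in tumors, with 3 of 6, and -0.14 to -0.099 in preneoplastic colon, with 0 of 2. These values do not settle whether replicate numbers pair the samples. With the replicate block 3 of the 10 genes were called in Kit-B6, beside 194 of 823 panel genes, and 3 in Kit-W/sh, beside 254 of 852. The calls lost were Lck (-1.19, edgeR adjusted p = 0.0806), Cd4 (-1.50, edgeR adjusted p = 0.0871) and Cd7 (-1.75, edgeR adjusted p = 0.0604) in Kit-B6, and Cd7 (-1.86, edgeR adjusted p = 0.0756) in Kit-W/sh. The block made Cd3g 0.019, Cd28 0.12 and Cd247 0.25 in Kit-W/sh over stage, and Zap70 0.00066 and Cd7 -0.014 between genotypes in tumors. The Kit-W/sh stage difference of Cd247 was also positive without scaling (0.26), by DESeq2 (0.0018), with no filter (0.013) and with the 9 genes (0.23).

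Leaving out libraries in turn also turned the sign of differences that were not called. The ranges over stage were -1.24 to 0.14 for Icos in Kit-B6, and -0.44 to 0.14 for Cd247 and -0.28 to 0.65 for Cd4 in Kit-W/sh. Between genotypes in tumors they were -0.35 to 0.022 (Zap70), -0.082 to 0.57 (Cd3g), -0.11 to 0.64 (Cd247) and -0.20 to 0.23 (Cd7), and in preneoplastic colon -1.09 to 0.063 (Zap70), -0.52 to 0.21 (Cd3g), -0.68 to 0.13 (Cd247) and -1.06 to 0.32 (Icos). The interaction of Zap70 ranged from -0.26 to 0.90. Of the correlations with Cd3g, 4 passed, and 2 to 5 did when 1 tumor was left out; 2 passed without Kit-B6 tumor 3 and 2 without the library labelled Kit-W/sh tumor 2. Pearson r ranged from -0.063 to 0.23 for Lime1, -0.15 to 0.17 for Lck, -0.34 to 0.32 for Zap70 and -0.32 to 0.30 for Cd7. With a pseudocount of 0.25 CPM, Lime1 over Cd247 no longer passed (-1.84, exact permutation, adjusted p = 0.0636). Trat1 in tumors, at 0 to 14 counts a library, was limited by depth.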
